A study of Mus musculus with 4 samples.

Results

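The 10 enzymes described here build, desaturate and lengthen long-chain fatty acids: the citrate-cleaving enzyme Acly, the carboxylase Acaca, the synthase Fasn, the desaturases Scd1, Scd2, Fads1 and Fads2, and the elongases Elovl1, Elovl5 and Elovl6. They were chosen by function from the 19751 genes that had a named probe on the arrays, and each had at least 1 probe, 14 probes in all. RNA of the palmitate group came from cultures of C2C12 myoblasts, a mouse cell line derived from satellite cells of thigh muscle, exposed for 48 h to palmitate bound to albumin (0.1 mmol/l). RNA of the control group came from untreated cultures of the same line, which received the same ethanol and albumin without palmitate. Both groups were harvested on day 3 of proliferation, and the treatment protocol gives medium with 5% fetal bovine serum for both, whereas the control channel's label reads 10%HS. Each of 4 two-colour oligonucleotide arrays held 1 palmitate culture (cyanine 5) and 1 control culture (cyanine 3), labelled as biological replicates 1 to 4. The dyes were never exchanged, so dye and treatment cannot be told apart.

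Fatty acid synthesis starts in the cytosol, where Acly cleaves citrate to acetyl-CoA, Acaca carboxylates it to malonyl-CoA and Fasn joins these units into palmitate, the same fatty acid that was added to the medium. Elongases at the endoplasmic reticulum add further malonyl units to palmitate and to longer acyl chains, while desaturases introduce double bonds with electrons carried by cytochrome b5. Many of these genes are known targets of the SREBP transcription factors, together with NF-Y and Sp1, and polyunsaturated fatty acids are known to lower SREBP activity in liver.

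The palmitate channel was well above background for 61.9 to 70.7% of the gene probes per array and the control channel for 57.6 to 64.0%. The log2 ratios of replicate 1 correlated at -0.16 to 0.06 with those of the other arrays across tested probes, whereas replicates 2, 3 and 4 correlated at 0.68 to 0.77 with each other, so values are also given without replicate 1. Replicate 1 was set apart on these same ratios, so adjusted p-values without it are descriptions only. The myoblast genes Myod1, Myf5 and Des were well above background, whereas the adipocyte genes Adipoq and Plin1 were above background on no array, in palmitate as in control RNA. Of 24169 tested probes, 0 (0%) passed an adjusted p of 0.05 in limma together with a fold of 1.6 over the 4 arrays, and 2682 (11.1%) were lower and 2601 (10.8%) were higher at an unadjusted p of 0.05.

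Across the pathway, the elongases Elovl6 and Elovl1 had the lowest ratios of palmitate-treated over control myoblasts and the desaturases Fads1 and Scd1 the highest, while Acly, Acaca, Fasn, Scd2, Fads2 and Elovl5 lay within 0.16 log2 units of 0. With 1 gene taken at its brightest probe, 0 of the 10 genes passed the threshold over all 4 arrays, as did 0% of 13712 tested genes. At an unadjusted p of 0.05 in limma, 2 of the 10 were lower, as were 13.3% of all tested genes, and 2 of the 10 were higher, as were 10.8% of all tested genes, which makes 4 of 10 in either direction against 24.2% of all genes. Without replicate 1, the same 4 genes passed an adjusted p of 0.05 in limma, 2 lower and 2 higher, as did 18.6% of 13709 tested genes (9.84% lower and 8.76% higher). Of these 4, Elovl6 alone also reached the fold of 1.6, which 2.84% of genes did in the lower and 2.01% in the higher direction. Leaving out replicate 2, 3 or 4 instead left 0 of the 10 genes at an adjusted p of 0.05 in limma. The median log2 ratio of the 10 genes was 0.05, against 0.00 over all tested genes. Because RNA was taken from whole cultures, fewer cells of a type and less RNA per cell cannot be told apart.

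**Figure D1:**
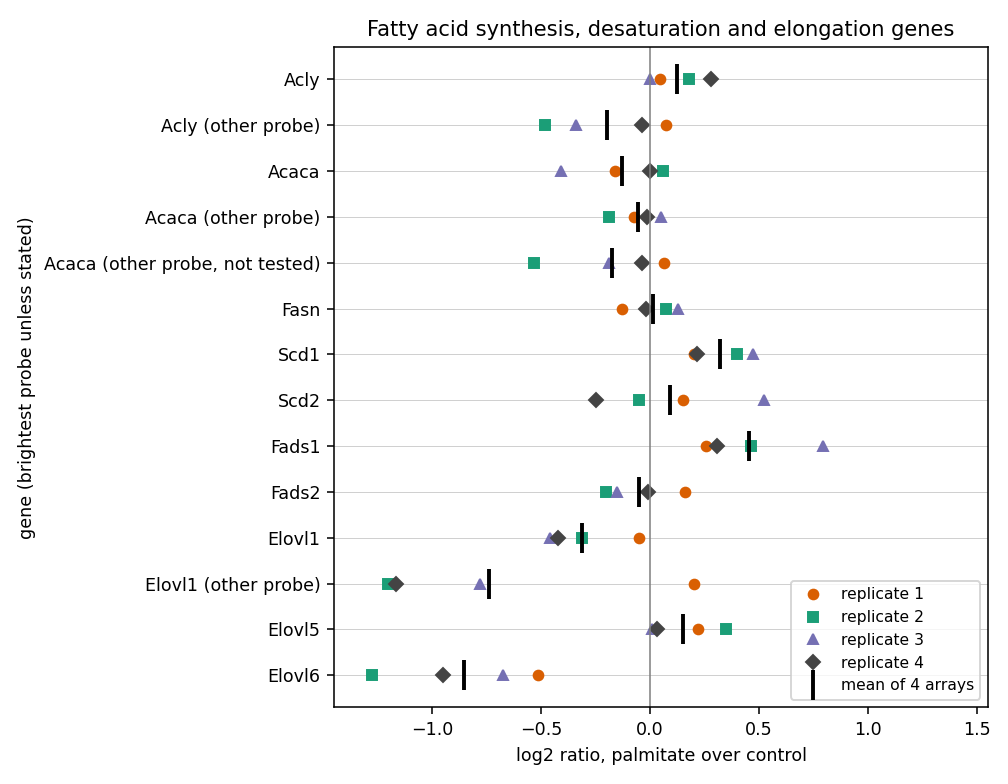
Log2 ratio of palmitate over control for each of the 14 probes of the 10 genes on each array (symbols), with the mean of 4 arrays as a black bar; the horizontal axis is in log2 units and 0 means equal signals. Elovl6 lies below 0 and Scd1 and Fads1 lie above 0 on every array, and the dimmer Elovl1 probe has replicate 1 on the other side of 0 from the other replicates.

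Elovl6, the elongase that lengthens palmitate to stearate, had the lowest ratio of the 10 genes. Its normalised log2 signals were 11.14, 10.54, 10.85 and 10.81 in palmitate replicates 1 to 4, against 11.65, 11.82, 11.53 and 11.76 in the matched controls. Every palmitate culture was below every control culture, which held in the lower direction for 8.28% of tested genes. The log2 ratios were -0.51, -1.28, -0.68 and -0.95, a mean of -0.86 ± 0.34 (SD, n = 4), that is 1.81-fold higher in the controls. The adjusted p in limma was 0.118, with a 95% interval of the ratio of -1.18 to -0.53, so that the threshold was missed with all 4 arrays. Without replicate 1 the mean was -0.97 ± 0.30 (SD, n = 3) with an adjusted p in limma of 0.00621. Without replicate 2, 3 or 4 the adjusted p in limma was 0.440, 0.338 and 0.308. Without the pairing of cultures by array it was 0.0483, past the threshold. With each array centred on its median in place of loess the ratio was -0.56 (adjusted p = 0.799 in limma), and without any dye normalisation it was 0.25, both -0.76 relative to the median of all genes. That agreement follows by construction, since median centring shifts all genes of an array by the same amount.

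Elovl1, which lengthens saturated and monounsaturated very long chains, was measured by 2 probes. The brighter had log2 signals of 15.86, 15.59, 15.41 and 15.37 in palmitate replicates 1 to 4 and of 15.91, 15.90, 15.87 and 15.79 in the controls. The palmitate culture of replicate 1 reached into the control range, and the other 3 lay below it. Its log2 ratio was -0.31 ± 0.19 (SD, n = 4, adjusted p = 0.153 in limma) and, without replicate 1, -0.40 ± 0.08 (SD, n = 3, adjusted p = 0.0259 in limma). Leaving out replicate 2, 3 or 4 gave adjusted p-values of 0.50, 0.38 and 0.39 in limma. The dimmer probe had log2 ratios of 0.20, -1.20, -0.78 and -1.17, a mean of -0.74 ± 0.65 (SD, n = 4, adjusted p = 0.161 in limma). Both probes were therefore lower under palmitate in replicates 2 to 4, and they differed in replicate 1, where the dimmer one was higher. Without replicate 1 the dimmer probe averaged -1.05 ± 0.23 (SD, n = 3, adjusted p = 0.00368 in limma). For this probe, leaving out replicate 2, 3 or 4 gave adjusted p-values of 0.559, 0.377 and 0.386 in limma. At the brighter probe the sign depended on the dye normalisation, with a log2 ratio of 0.095 under median centring and 0.91 without dye normalisation, both -0.10 relative to the median of all genes. As for Elovl6, these relative values match by construction.

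Elovl5, the elongase of polyunsaturated fatty acids, had log2 ratios of 0.22, 0.35, 0.01 and 0.03. These were above 0 on all 4 arrays, as for 15.6% of tested genes, with a mean of 0.15 ± 0.16 (SD, n = 4, adjusted p = 0.370 in limma) and a 95% interval of -0.07 to 0.37. Within each array, the log2 ratio of Elovl6 minus that of Elovl5 was -0.73, -1.63, -0.68 and -0.98. The mean difference was -1.01 ± 0.43 (SD, 4 of 4 arrays below 0, exact two-sided sign-flip test, p = 0.125, the smallest that 4 arrays allow, and 0.167 after Benjamini-Hochberg adjustment over the 4 pairs of enzymes compared). Without replicate 1 the mean difference was -1.10.

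**Figure D2:**
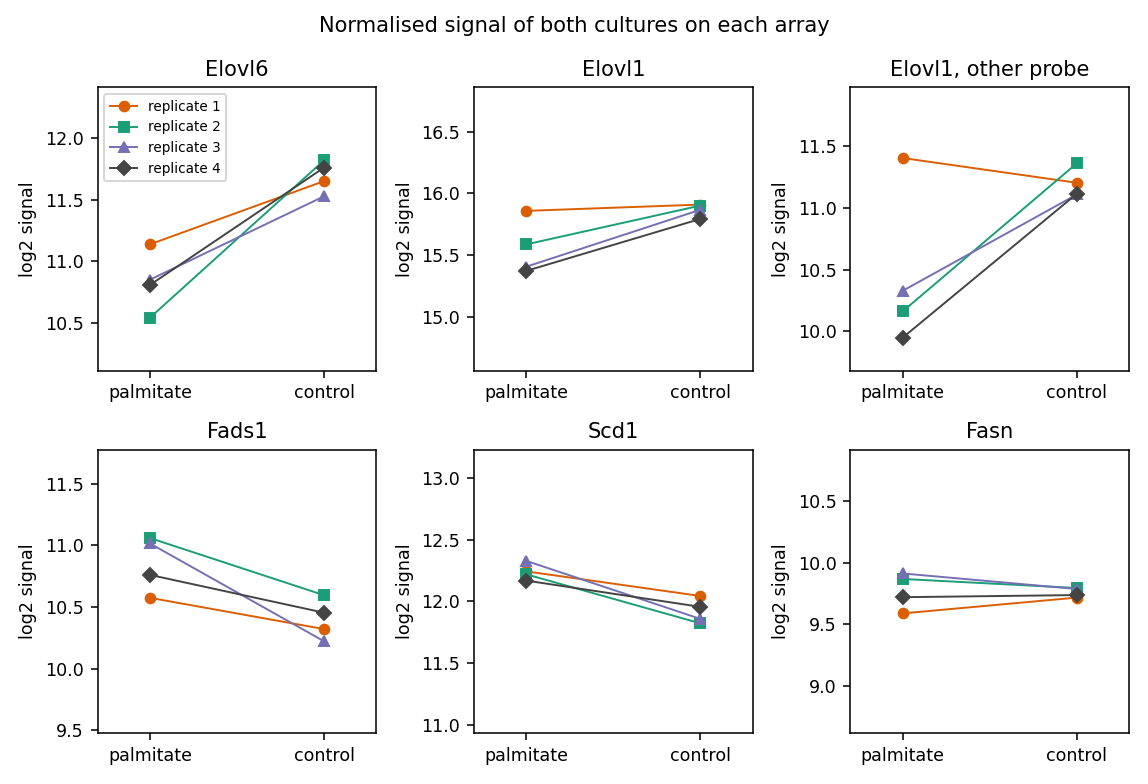
Normalised log2 signal (vertical axis) of both cultures of each array, palmitate left and control right, joined by a line per replicate; each panel has its own range. For Elovl6 and Scd1 the groups do not overlap, whereas for the dimmer Elovl1 probe the palmitate culture of replicate 1 (11.40) lies above its control (11.20), and for Fasn the lines run nearly level.

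The median log2 ratio of the 4 desaturases was 0.21, and that of the 3 elongases -0.31, against 0.00 over all tested genes. Neither class had a single direction, since Elovl5 averaged 0.15 and Fads2 -0.05. Fads1, which makes the last double bond of arachidonic acid, had the highest ratio of the 10 genes. Its log2 signals were 10.57, 11.06, 11.02 and 10.76 in palmitate replicates 1 to 4, against 10.32, 10.60, 10.22 and 10.45 in the controls. On each array palmitate was above its own control, although the groups overlapped, since palmitate replicate 1 (10.57) was below control replicate 2 (10.60). The log2 ratio was 0.45 ± 0.24 (SD, n = 4), a fold of 1.37, with an adjusted p in limma of 0.125 and a 95% interval of 0.19 to 0.72. Without replicate 1 it was 0.52 ± 0.25 (SD, n = 3, adjusted p = 0.0256 in limma). Leaving out replicate 2, 3 or 4 gave adjusted p-values of 0.449, 0.338 and 0.308 in limma.

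Scd1 makes palmitoleate from palmitate and oleate from stearate. Its log2 signals were 12.24, 12.22, 12.33 and 12.17 in palmitate replicates 1 to 4, against 12.04, 11.82, 11.86 and 11.96 in the controls. Every palmitate culture was above every control culture, which held in the higher direction for 5.43% of tested genes. The log2 ratio was 0.32 ± 0.14 (SD, n = 4), a fold of 1.25, with an adjusted p in limma of 0.132 and a 95% interval of 0.11 to 0.53. Without replicate 1 it was 0.36 ± 0.13 (SD, n = 3, adjusted p = 0.0427 in limma). Leaving out replicate 2, 3 or 4 gave adjusted p-values of 0.475, 0.346 and 0.316 in limma. The adjusted p in limma was 0.0617 with the scanner's processed signals and without replicate 1. Under that setting 27.4% of genes passed 0.05, and Fads1, Elovl1 and Elovl6 were among them.

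The related enzymes Scd2 and Fads2 did not follow on every array. Scd2, a desaturase of the same reaction as Scd1, had log2 ratios of 0.15, -0.05, 0.52 and -0.25, a mean of 0.09 ± 0.33 (SD, n = 4, adjusted p = 0.710 in limma, 95% interval -0.23 to 0.42). Fads2, which makes the first double bond on the way to arachidonic acid, had log2 ratios of 0.16, -0.20, -0.15 and -0.01 and a mean of -0.05 ± 0.16 (SD, n = 4, adjusted p = 0.770 in limma). Neither gene had the same direction in all replicates. The ratio of Fads1 exceeded that of Fads2 on 4 of 4 arrays, by 0.51 ± 0.38 log2 units (SD, exact two-sided sign-flip test, p = 0.125, adjusted 0.167), and by 0.64 without replicate 1. The ratio of Scd1 exceeded that of Scd2 on 3 of 4 arrays, by 0.23 ± 0.27 (SD, exact two-sided sign-flip test, p = 0.375, adjusted 0.375), and by 0.29 without replicate 1.

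The enzymes that supply carbon and build palmitate itself, Acly, Acaca and Fasn, had mean log2 ratios between -0.13 and 0.13 at their brightest probes. Fasn, the fatty acid synthase, had log2 signals of 9.59, 9.87, 9.91 and 9.72 in palmitate replicates 1 to 4 and of 9.72, 9.79, 9.79 and 9.74 in the controls. The control values lay inside the palmitate range, and the log2 ratio was 0.01 ± 0.11 (SD, n = 4, adjusted p = 0.938 in limma) with a 95% interval of -0.18 to 0.21. On every array the ratio of Scd1 exceeded that of Fasn, by 0.31 ± 0.05 log2 units (SD, 4 of 4 arrays, exact two-sided sign-flip test, p = 0.125, adjusted 0.167), and by 0.30 without replicate 1.

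Acaca, the carboxylase that makes malonyl-CoA, had log2 ratios of -0.16, 0.06, -0.41 and 0.00 at its brightest probe, a mean of -0.13 ± 0.21 (SD, n = 4, adjusted p = 0.493 in limma, 95% interval -0.37 to 0.12). A second Acaca probe averaged -0.06 ± 0.10 (SD, n = 4, adjusted p = 0.704 in limma), and the third was well above background on only 2 arrays in each channel and was not tested. Acly, which supplies acetyl-CoA, had log2 ratios of 0.04, 0.18, 0.00 and 0.28 at its bright probe, a mean of 0.13 ± 0.13 (SD, n = 4, adjusted p = 0.421 in limma, 95% interval -0.08 to 0.33). Its dim probe ran the other way, at -0.20 ± 0.26 (SD, n = 4, adjusted p = 0.355 in limma), so the 2 Acly probes differed in sign and neither passed the test.

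The promoters of the genes with the lowest ratio, of Elovl5 and of Fasn are shown to set the SREBP, NF-Y and Sp1 motifs beside the ratios. RefSeq gave 8 entries (GRCm38.p6, 250 bases before the start given there, on the gene's strand) for 7 of the 10 genes, and none for Scd1, Scd2 and Fads1. For Elovl6, Elovl5, Acly and Fads2 this start is the outer end of the annotated gene, whereas the windows of Fasn, Acaca and Elovl1 lie inside the gene's span, with starts 619 bases (Fasn), 65803 bases (Acaca) and 1219 and 2827 bases (both Elovl1 entries) from its outer end, and the entry of Elovl1 nearer that end is printed. TCACCCCAC, a site of SREBP, CCAAT, the site of NF-Y, and GGGCGG, the site of Sp1, were searched on both strands, and all matches are printed in capitals in the 5′ to 3′ direction.
Elovl6, chr3:129532136-129532385, plus strand: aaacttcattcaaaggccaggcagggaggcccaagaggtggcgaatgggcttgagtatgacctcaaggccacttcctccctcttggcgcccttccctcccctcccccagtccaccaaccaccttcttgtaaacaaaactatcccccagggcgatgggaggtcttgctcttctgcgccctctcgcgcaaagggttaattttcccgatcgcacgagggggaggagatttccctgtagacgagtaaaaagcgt
Elovl1, chr4:118427843-118428092, plus strand: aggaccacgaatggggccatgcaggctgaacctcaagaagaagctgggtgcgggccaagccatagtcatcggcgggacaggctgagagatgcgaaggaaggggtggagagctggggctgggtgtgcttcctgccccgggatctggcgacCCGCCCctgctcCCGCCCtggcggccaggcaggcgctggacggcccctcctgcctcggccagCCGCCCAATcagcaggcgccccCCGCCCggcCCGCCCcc
Elovl5, chr9:77917115-77917364, plus strand: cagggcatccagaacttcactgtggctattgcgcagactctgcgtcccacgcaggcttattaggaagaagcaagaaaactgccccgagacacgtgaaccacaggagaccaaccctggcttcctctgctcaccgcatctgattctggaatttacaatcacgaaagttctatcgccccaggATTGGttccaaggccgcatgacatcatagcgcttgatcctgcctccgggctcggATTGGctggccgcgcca
Fasn, chr11:120824548-120824797, minus strand: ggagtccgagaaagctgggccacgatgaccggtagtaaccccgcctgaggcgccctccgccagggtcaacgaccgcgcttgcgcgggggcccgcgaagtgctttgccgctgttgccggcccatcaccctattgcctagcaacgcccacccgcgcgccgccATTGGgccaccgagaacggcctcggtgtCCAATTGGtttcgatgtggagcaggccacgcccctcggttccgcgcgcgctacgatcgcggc
In this window Elovl6 held 0 matches to any of the 3 motifs. Elovl1 held 1 NF-Y match, which overlaps 1 of its 5 Sp1 matches, and its other entry held 0 NF-Y and 2 Sp1 matches. Elovl5 held 2 NF-Y matches, and Fasn held 3, of which 2 overlap each other on opposite strands. The SREBP letters were found in 0 of the 8 entries and in 0.496% of 32851 promoters of the same length, whereas CCAAT was found in 33.8% and GGGCGG in 32.7% of them. A match is a description of the letters only.

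Among 40 genes in 4 further lists (other fatty acid synthesis genes, other desaturases and their electron donors, other elongation cycle genes, and lipogenic transcription factors with their regulators), 37 were tested. Over all 4 arrays 0 passed the threshold in limma, and at an unadjusted p of 0.05 there were 7 lower and 2 higher, against 13.3% and 10.8% of all tested genes. Without replicate 1, 6 were lower and 2 higher at an adjusted p of 0.05 in limma, against 9.84% and 8.76% of all tested genes. At the threshold, which also asks for a fold of 1.6, 1 of the 37 passed without replicate 1, in the lower direction, as did 2.84% of genes. Leaving out replicate 2, 3 or 4 instead left 0 of the 37 past that threshold.

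The elongation cycle had 9 of 10 genes tested. At an unadjusted p of 0.05 in limma 3 were lower and 0 higher, against 13.3% and 10.8% of all tested genes. Tecr, the enoyl reductase that ends each cycle of elongation, had log2 ratios between -1.06 and -0.29 and averaged -0.66 ± 0.43 (SD, n = 4, adjusted p = 0.127 in limma), with an adjusted p of 0.0202 in limma without replicate 1. Hacd1, a dehydratase of the same cycle known for its role in muscle, averaged -0.38 ± 0.19 (SD, n = 4, adjusted p = 0.130 in limma, 0.0175 without replicate 1). Both were thus lower on all 4 arrays, as were Elovl6 and the brighter but not the dimmer Elovl1 probe. Elovl7 was also lower on all 4 arrays and averaged -0.31 ± 0.20 (SD, n = 4, adjusted p = 0.165 in limma, 0.0690 without replicate 1). The other dehydratases and the ketoreductase of the cycle, named after their values were seen, had mean log2 ratios near or above 0 at their brightest probes, with 0.06 for Hacd2, -0.07 for Hacd3, 0.21 for Hacd4 and 0.00 for Hsd17b12. A second Hacd4 probe had the other direction, at -0.51 ± 0.51 (SD, n = 4) and, without replicate 1, -0.75 ± 0.24 (SD, n = 3). Lower ratios on all 4 arrays were seen for 4 of the 9 tested genes of this list, Hacd3 included, against 16.7% of all tested genes.

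The list of other desaturases and electron donors had 7 of 7 genes tested. At an unadjusted p of 0.05 in limma 2 were lower and 1 higher, against 13.3% and 10.8% of all tested genes. The desaturases of this list, named after their values were seen, were not among these. Scd3, Scd4, Fads3 and Fads6 averaged -0.08, 0.00, -0.09 and -0.17 at their brightest probes, and other Scd3 probes averaged 0.03 and 0.19. Cyb5a, the cytochrome b5 of the endoplasmic reticulum, had log2 ratios of -0.33, -0.56, -0.51 and -0.54 and averaged -0.48 ± 0.10 (SD, n = 4, adjusted p = 0.118 in limma, 0.0111 without replicate 1). Cyb5r3, its reductase, averaged -0.66 ± 0.26 (SD, n = 4, adjusted p = 0.118 in limma, 0.0189 without replicate 1), and its other probe was also below 0 on all 4 arrays, at -0.29, -1.25, -0.63 and -0.43. Cyb5b, the mitochondrial cytochrome b5, had the opposite direction, at 0.37 ± 0.12 (SD, n = 4, adjusted p = 0.120 in limma, 0.0257 without replicate 1). A second Cyb5b probe averaged 0.33 ± 0.35 (SD, n = 4), with replicate 1 at -0.12. Cyb5a and Cyb5r3 were thus below 0 on all 4 arrays, opposite to Fads1 and Scd1, which draw on electrons carried by cytochrome b5. Of these carriers, only the mitochondrial Cyb5b was above 0 on all 4 arrays, at its brightest probe. Among all tested genes, 16.7% were below 0 and 15.6% above 0 on all 4 arrays.

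Of 10 tested genes among 12 other fatty acid synthesis genes, 1 was lower and 0 were higher at an unadjusted p of 0.05 in limma. The shares of all tested genes were 13.3% and 10.8%. Mcat, the malonyltransferase of mitochondrial fatty acid synthesis, averaged -0.23 ± 0.15 (SD, n = 4, adjusted p = 0.204 in limma), while Oxsm and Mecr of the same mitochondrial pathway averaged 0.17 ± 0.23 and -0.12 ± 0.08 (SD, n = 4 each). A second Oxsm probe had the other sign, at -0.12 ± 0.05 (SD, n = 4), below 0 on all 4 arrays. The unadjusted call of this list was thus Mcat, and the other tested genes of the list had none at their brightest probes. A dimmer Me1 probe, named after its values were seen, was above 0 on all 4 arrays. It averaged 0.35 ± 0.27 (SD, n = 4, unadjusted p = 0.0217, adjusted 0.169 in limma, and 0.0357 without replicate 1). The brightest Me1 probe averaged -0.07 ± 0.12 and the remaining one 0.09 ± 0.12 (SD, n = 4 each).

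All 11 transcription factors and regulators were tested. At an unadjusted p of 0.05 in limma 1 was lower and 1 higher, against 13.3% and 10.8% of all tested genes. Mbtps1, a protease that cuts the SREBP precursor, averaged -0.33 ± 0.16 at its brighter probe (SD, n = 4, adjusted p = 0.135 in limma) and 0.01 ± 0.04 at the other. Insig2, which retains SREBP in the endoplasmic reticulum, had log2 ratios of -0.14, 0.45, 0.64 and 0.80 (adjusted p = 0.190 in limma, 0.0110 without replicate 1), and its other probe did not share that direction, at -0.52, -0.39, 0.28 and -0.09. Nr1h2, a liver X receptor, had log2 ratios of 0.44, -0.87, -0.33 and -0.45. For Insig2 and Nr1h2, replicate 1 was on the other side of 0 from the 3 remaining replicates. Srebf1 and Srebf2, which encode the SREBP proteins and were added here after their values were seen, averaged -0.08 ± 0.23 and -0.01 ± 0.22 at their brightest probes (SD, n = 4 each, adjusted p = 0.697 and 0.980 in limma). A second Srebf2 probe did not give the same picture, with log2 ratios of 0.82, -1.69, -1.43 and -0.66, a mean of -0.74 ± 1.13 (SD, n = 4, adjusted p = 0.320 in limma) and, without replicate 1, of -1.26 ± 0.54 (SD, n = 3, adjusted p = 0.00875 in limma).

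**Figure D3:**
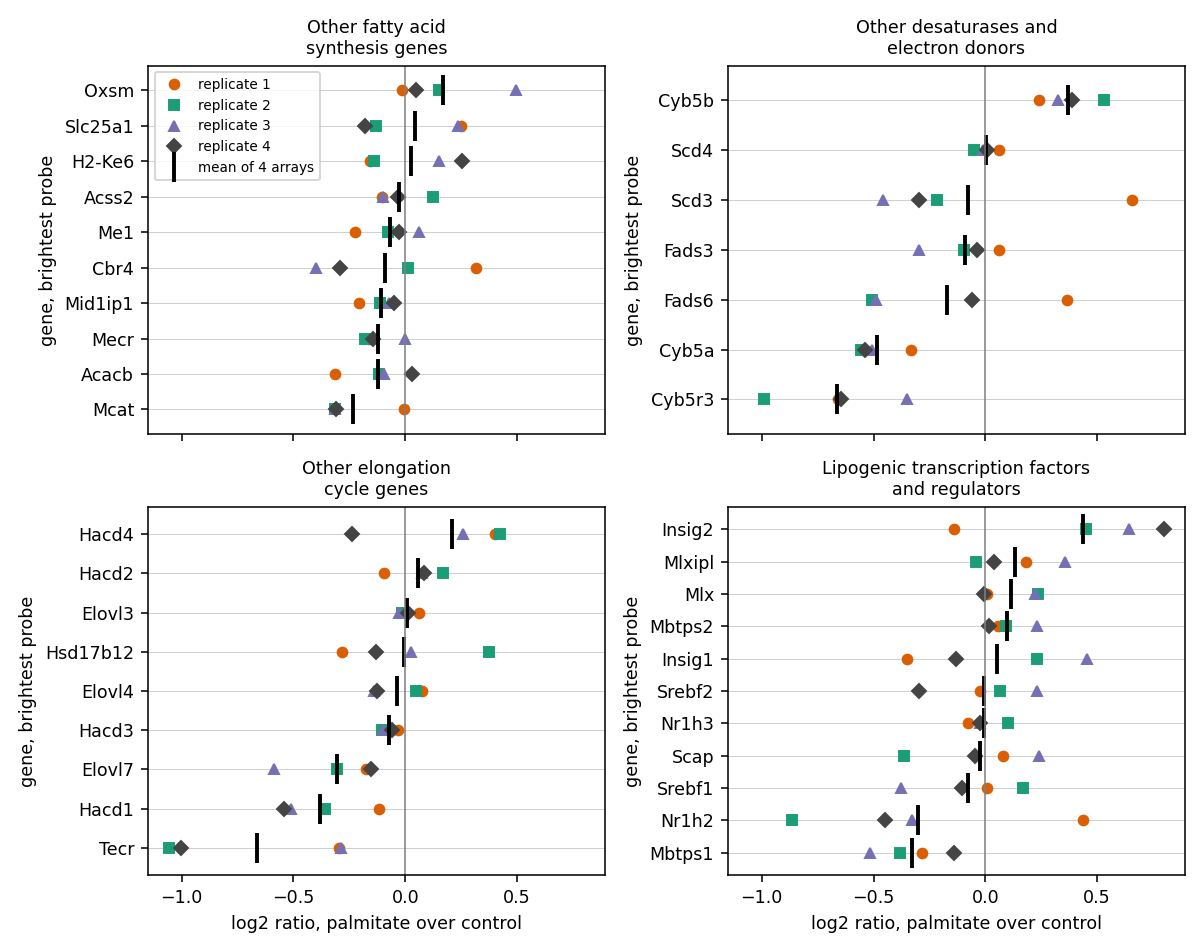
Log2 ratio of palmitate over control (horizontal axis, log2 units) at the brightest probe of the 37 tested genes of the 4 further lists, with symbols for the arrays and a black bar for the mean of 4 arrays. Tecr, Hacd1, Cyb5a and Cyb5r3 lie below 0 and Cyb5b above 0 on every array, whereas Insig2 and Nr1h2 have replicate 1 on the other side of 0.

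Markers of differentiated muscle were measured beside these values. Of 6 such genes 4 were tested, and Myog (0.30 ± 0.14, SD, n = 4, adjusted p = 0.141 in limma) and Myh3 (0.32 ± 0.18, SD, n = 4, adjusted p = 0.150 in limma, named after its values were seen) were above 0 on all 4 arrays, in the direction of Fads1 and Scd1. These were 2 of the 4 at an unadjusted p of 0.05, against 10.8% of all tested genes in the higher direction and 15.6% above 0 on all 4 arrays. The other tested genes of this list, Tnnt3 (0.16 ± 0.25) and Acta1 (-0.08 ± 0.20, SD, n = 4 each, both named after their values were seen), had arrays on both sides of 0. Of 4 tested myoblast markers, Myod1 (0.24 ± 0.20, SD, n = 4, adjusted p = 0.227 in limma) was above 0 on all 4 arrays and at an unadjusted p of 0.05, whereas Myf5 (0.41 ± 0.52), Des (-0.13 ± 0.36) and Cdh15 (0.01 ± 0.23, SD, n = 4 each, Cdh15 named after its values were seen) had arrays on both sides of 0. The summed signal of the 6 genes was 11780 to 15770 in palmitate cultures and 13110 to 15040 in control cultures, and that of 5 myoblast markers 17560 to 24700 in palmitate cultures and 19600 to 24100 in control cultures. The part of differentiation in the ratios of the 10 enzymes was not tested. The adipocyte gene Fabp4 averaged 0.01 ± 0.12 (SD, n = 4). Of 7 adipocyte genes, 5 were above background on no array in either channel, and the summed signal of the 7 was 939.5 to 1004 in palmitate cultures and 953.8 to 969.4 in control cultures.

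The size and sign of single ratios moved with the dye normalisation, and so did the median of all genes. With each array centred on its median in place of loess, the median of all tested genes was 0.20, and without dye normalisation it was 1.01. Genes did not move by the same amount, since Elovl1 was -0.31 relative to that median with loess and -0.10 with median centring. Relative to the median of all genes, Elovl6 lay between -0.97 and -0.71 and Elovl1 between -0.53 and -0.10 under 17 alternative settings, below the median in 17 of 17, as was Acaca (-0.19 to 0.00). Fads1 lay between 0.34 and 0.56, Scd1 between 0.27 and 0.42 and Elovl5 between 0.09 and 0.26, above the median in 17 of 17. Acly, Fasn and Scd2 lay on both sides of the median under these settings, and so did Fads2. The 17 settings were not independent checks. Several changed only the probe filter or the test, which leaves the ratio of a gene as it was. The authors' table repeated the processed signals. Median centring and no dye normalisation gave nearly the same relative values by construction.

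**Figure D4:**
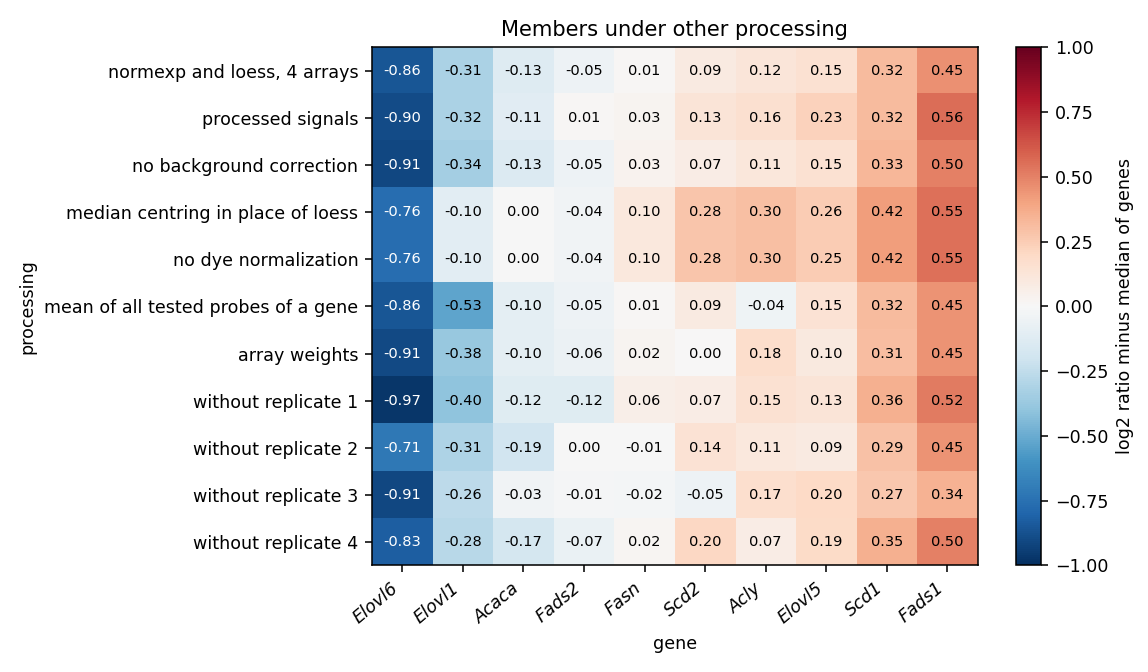
Log2 ratio of palmitate over control minus the median of all tested genes (colour and printed value, log2 units) for the 10 genes (columns, ordered by the ratio from 4 arrays) under 11 of the settings (rows). Elovl6 and Elovl1 stay below and Elovl5, Scd1 and Fads1 above the gene median in every row, while Fasn, Scd2, Acly and Fads2 cross it in at least 1 row. Acaca also stays below it, though only at -0.004 with median centring and without dye normalisation.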

How the data were processed

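Total RNA of C2C12 myoblasts (1000 ng) was labelled and hybridised to 4 two-colour Agilent arrays; per the labels, Feature Extraction 10.7.3.1 read them. The deposited array files hold intensity per spot and channel (median signal, background and processed signal) and a log10 ratio of red over green. The deposited table of log2 values equals the ratio of the processed signals within 3.0e-06 and served as an alternative. The authors' methods name a fold of 1.6, a t-test and Benjamini-Hochberg correction.

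Here median signals were corrected by normexp (offset 50), normalised by loess within arrays and averaged by probe (limma 3.58.1, R 4.3.3), since mean signals are not in the files used. Each array has 44397 spots, of which 43020 are gene spots of 39429 probes. Of these probes 26055 had 1 gene name through RefSeq and 13374 had none. Tested were the 24169 probes whose palmitate or control channel was well above background on every array. The mean log2 ratio was tested against 0 in limma with p-values adjusted over all tested probes, and a gene was called where its brightest probe passed an adjusted p of 0.05 with a fold of 1.6. The arrays pair the cultures, since 1 palmitate and 1 control culture shared each array. Channel signals were taken after loess and Aquantile normalisation. Arrays give no counts, so the number of arrays limits the precision, and the labels call the arrays biological replicates without saying how cultures were separated. No spot of the 10 enzymes was saturated or flagged.

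The 10 enzymes, the lists and the alternatives were chosen with earlier results of these data known. Named were all 10 enzymes, the 3 tested genes of each list with the smallest unadjusted p, and the checks Myod1, Myf5, Des, Myog, Adipoq, Plin1 and Fabp4. Alternatives covered the background correction, dye normalisation, filters, spread model, probe choice, array weights and leaving out each replicate. The script was tested on simulated data. Promoters came from RefSeq.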

Additional observations from a re-analysis of the deposited data

Results flagged for a closer look

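Mcat, the mitochondrial malonyltransferase, had 1 array far from the others. Its log2 ratio was 0.00 in replicate 1 and -0.31 in each of replicates 2, 3 and 4, so that the gap to the nearest replicate was 0.991 of the whole range, above Dixon's critical value for 4 values. Among 25 genes examined in this way this was the only one past that value, and chance alone gives about 1 in 20.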

How the results depend on the processing

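Over all tested probes, the count past the threshold was 0 with the 4 arrays and 13 with the processed signals and with the authors' table. It was 2 with a limit on the coefficient of variation, 3 with the methods' t-test and 832 of 24169 with array weights (0.416 for replicate 1). Without dye normalisation it was about 20350 of 24169 probes (26 lower and 20322 higher). With 1 replicate left out it was 0 to 1308, the highest without replicate 1 (1308 of 24165). Of the 10 enzymes, 9 passed without dye normalisation, 1 (Elovl6) with array weights and 0 to 1 when 1 replicate was left out, Elovl6 passing without replicate 1. Of the 37 tested genes of the further lists, 31 passed without dye normalisation, 1 with array weights and 0 to 1 when 1 replicate was left out. Without the pairing of cultures by array (no replicate block), 26 probes passed, 11 lower and 15 higher, and 1 of the 10 enzymes, Elovl6 (adjusted p = 0.0483 in limma). The median of the 10 enzymes was 0.05 in the main setting, 0.38 with median centring, 1.19 without dye normalisation, -0.011 with the mean of all probes of a gene and -0.021 to 0.067 when 1 replicate was left out, the lowest without replicate 3. Among alternatives chosen after seeing the data, 1 probe per gene gave 2 probes past the threshold. Also among these, the processed signals without replicate 1 gave 3452 of 24165 probes, 1 enzyme (Elovl6), 4 of 37 list genes and a median of 0.12. Median centring without replicate 1 gave a median of 0.43 and 0 calls (27.4% of genes passed an adjusted p of 0.05 with the processed signals and 0% with this centring). The sign turned for Fads2 with the processed signals and with the authors' table (0.021 each), with median centring (0.16, and 0.11 without replicate 1) and without dye normalisation (0.97), for Acaca with median centring (0.19, and 0.23 without replicate 1) and without dye normalisation (1.00), for Elovl1 with these 2 settings (0.095 and 0.91), for Elovl6 without dye normalisation (0.25), for Acly with the mean of its probes (-0.036), for Fasn when 1 replicate was left out (range -0.024 to 0.061, below 0 without replicate 2 or 3) and for Scd2 likewise (range -0.050 to 0.21, below 0 without replicate 3). The cause was not tested, and the median of all genes was 0.20 with median centring and 1.01 without dye normalisation. Of the 10 enzymes, 4 were at an unadjusted p of 0.05 with the 4 arrays, 3 without replicate 3 or without replicate 4, 0 with median centring and 9 without dye normalisation. The second Acaca probe was well above background in the control channel on 3 of 4 arrays only, which limits its ratio. With 4 arrays the 95% intervals of Fasn, Acly, Acaca, Scd2, Elovl5 and Fads2 (-0.27 to 0.17 for Fads2) still included 0.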
